A study of Canis lupus familiaris with 12 samples.

Results

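The genes described here drive the passage from G2 into mitosis and the division of the cell. They were chosen by name, from a list of 44 mitosis and G2/M genes, with no measured value in the rule. Of these names 41 matched 1 row each among the 29822 genes of the deposited tables. The other names, CCNB1, BIRC5 and MAD2L1, matched no row and are not analysed here. All 41 members had enough reads to be tested among 13358 genes.

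Messenger RNA was measured in peripheral blood mononuclear cells (PBMCs, the lymphocytes and monocytes of blood) of healthy, specific pathogen-free male beagles. All cultures ran for 24 h in RPMI1640-based medium with serum, antibiotics and 2-mercaptoethanol. The groups were untreated cells, cells with 1.0 mM 5-aminolevulinic acid (ALA, the first dedicated building block of heme), cells with 0.5 µg/ml concanavalin A (ConA, a lectin that stimulates T cells to divide), and cells with both. There were 3 libraries per treatment, 12 in all, and the titles number them 1 to 3, so that each number occurs once in each of the 4 treatments. The labels do not say whether a number is 1 animal, a pool or a day. The spread behind each p-value is therefore that between these samples only, and it may be technical. Libraries held 13390692 to 21517099 exon reads. PBMCs are a mixture, and in such bulk samples more cells of a dividing type and more RNA per cell cannot be told apart.

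In a dividing cell, CDK1 bound to cyclin A or B phosphorylates the proteins that condense chromosomes and build the spindle. Kinetochores attach chromosomes to spindle microtubules, the spindle checkpoint holds the cell until all are attached, and CDC20 then activates the anaphase-promoting complex (APC/C), a ubiquitin ligase that releases sister chromatids and destroys the cyclins. Motor proteins and the central spindle then place the cleavage furrow. Most of these genes are transcribed mainly in G2 and M phase, under the transcription factors MYBL2 and FOXM1, and are nearly silent in resting lymphocytes.

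The members differed widely in level. On the deposited per-length scale, TPM (transcript abundance corrected for gene length), the medians over the 12 libraries ran from 0.532 for ANLN, 0.917 for ASPM and 0.921 for BUB1 to 123 for SMC4, a condensin subunit. INCENP, the scaffold of the chromosomal passenger complex, came next at 43.6 TPM, ahead of AURKB at 17.5 and AURKA at 13. SMC4 alone gave 29.6 to 61.5% of the summed level of the 41 members in CPM (exon reads relative to the scaled library total, not corrected for length). The sum over the 41 members was 459, 776 and 844 CPM in untreated libraries 1, 2 and 3 and 911, 1330 and 1280 with ConA. SMC4, INCENP, AURKB and MKI67 held a large part of that sum. For the 37 others it was 109, 148 and 198 CPM in untreated libraries 1, 2 and 3. ALA libraries gave 137, 198 and 389 for these 37 genes, ConA libraries 492, 450 and 477, and libraries with both 339, 307 and 434. The split into these 4 genes and 37 others was made after the values were seen. None of the 4 passed in the main test of ConA given below. TOP2A, with a median of 42.7 CPM, stayed among the 37, though AURKB (37.8) and MKI67 (30.4) were lower. Every ConA library thus lay above every untreated one in both sums. In that of the 37 genes, ALA 3 stood apart from the other ALA libraries.

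**Figure D1:**
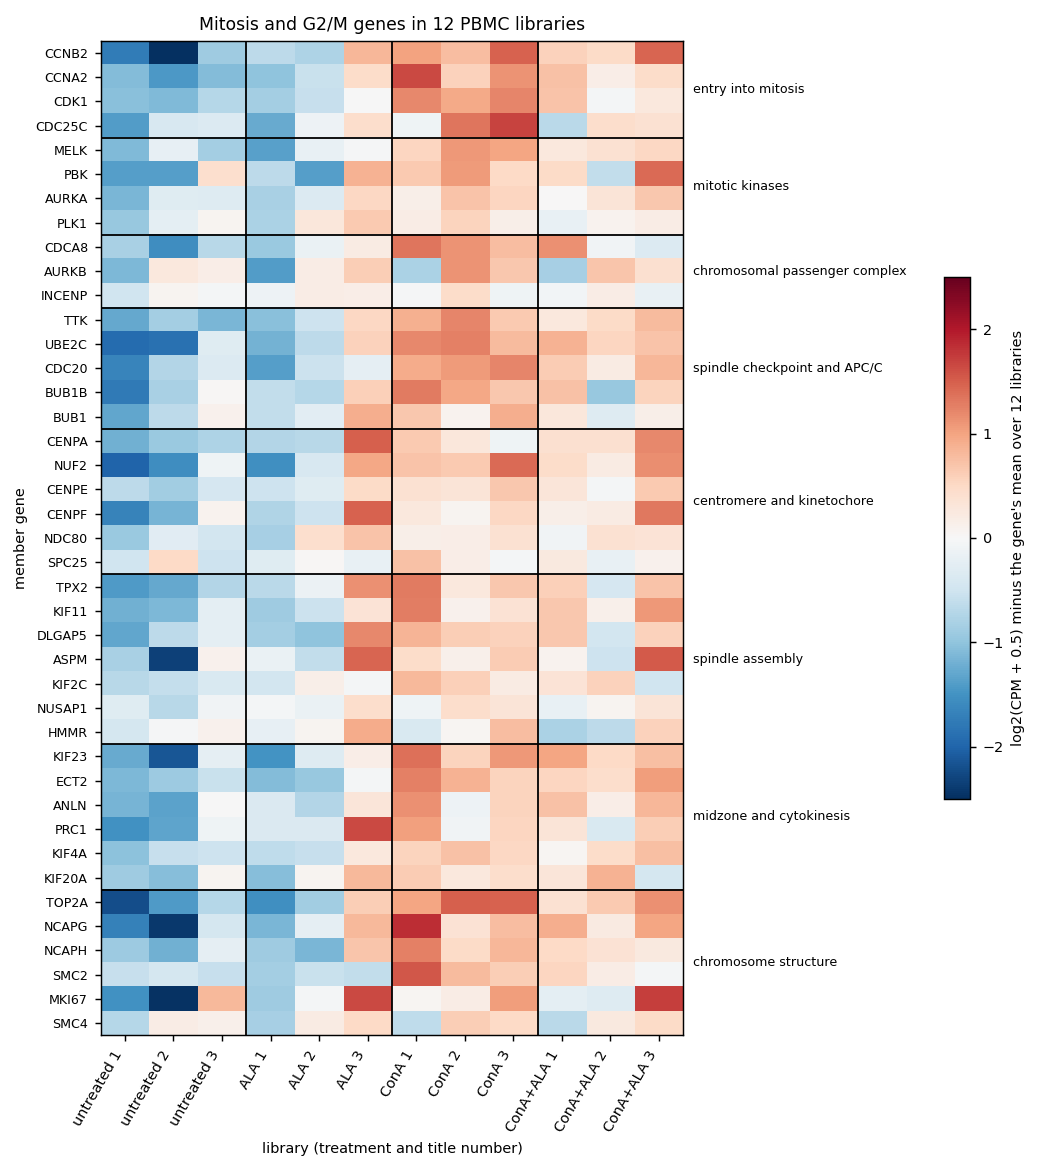
Level of each of the 41 members in each of the 12 libraries, as log2(CPM + 0.5) minus the gene's mean over the 12 libraries, ordered by role (rows) and treatment (columns). Red cells are above and blue cells below the gene's own mean; untreated 1 holds the lowest value of 22 members and untreated 2 of 13, ALA 3 is redder than ALA 1 and ALA 2, and the ConA libraries are red in most rows.

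To see which division genes responded to the mitogen, ConA cultures were compared with untreated ones. All 41 members had a fitted log2 fold change above 0, with a median of 1.61, whereas the median over all 13358 genes tested was −0.05 and 47.6% of them were above 0. Of the members 20 rose and 0 fell (adjusted p under 0.05 over all genes, edgeR's quasi-likelihood F-test with the Benjamini-Hochberg method), against 9.93% of all genes that rose. With the title number as a block, 35 members rose, against 21.3% of all genes. The 3 ConA libraries lay above all 3 untreated ones for 31 members, a pattern shown by 17.3% of all genes. In numbers 1, 2 and 3, ConA was higher for 41, 40 and 40 members, against 48.5, 48.2 and 46.1% of all genes. Per number, the median member was higher by 2.32, 1.71 and 0.93 (log2) in numbers 1, 2 and 3.

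Genes of mitotic entry rose as a group, 4 of 4 measured. CDK1, the kinase that starts mitosis (ENSCAFG00000012904, CanFam3.1 chromosome 4, 12883385 to 12899197, 8 exons), stood at 2.34, 2.26 and 3.08 CPM in untreated libraries 1, 2 and 3 and at 13, 10.9 and 13.3 with ConA. The groups lie far apart, and CDK1 rose by 2.27 ± 0.34 on the log2 scale (SE, adjusted p = 0.0012), with similar changes of 2.41, 2.21 and 2.07 in numbers 1, 2 and 3. CCNA2, cyclin A2, which partners CDK1 and CDK2 through S phase and G2, went from 1.62, 1.16 and 1.63 CPM to 13.7, 6.26 and 9.38. No ConA value of CCNA2 came near an untreated one (2.73 ± 0.48, adjusted p = 0.0029). CCNB2, cyclin B2 (chromosome 30, 24040859 to 24063084), had the largest fitted change of the members, 3.59 ± 0.91 (adjusted p = 0.018). It rested on few reads in untreated cells, 8, 0 and 18, against 137, 56 and 106 with ConA. In CPM, CCNB2 was 0.36, 0.0 and 1.05 in untreated cells and 5.28, 4.44 and 7.53 with ConA. CDC25C, the phosphatase that activates CDK1, stood at 1.22, 2.97 and 3.08 CPM in untreated cells and 3.74, 11 and 14.2 with ConA, where library 1 was far below the other two. Its rise of 1.99 ± 0.63 passed narrowly (adjusted p = 0.047; with the block 0.00011). CCNB2 did not pass without untreated 1 (adjusted p = 0.065), while CDC25C was lost in 8 of the 12 fits that leave out 1 library, those without any untreated library, ALA 2, ConA 2, ConA 3, ConA+ALA 2 or ConA+ALA 3 (up to 0.15).

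**Figure D2:**
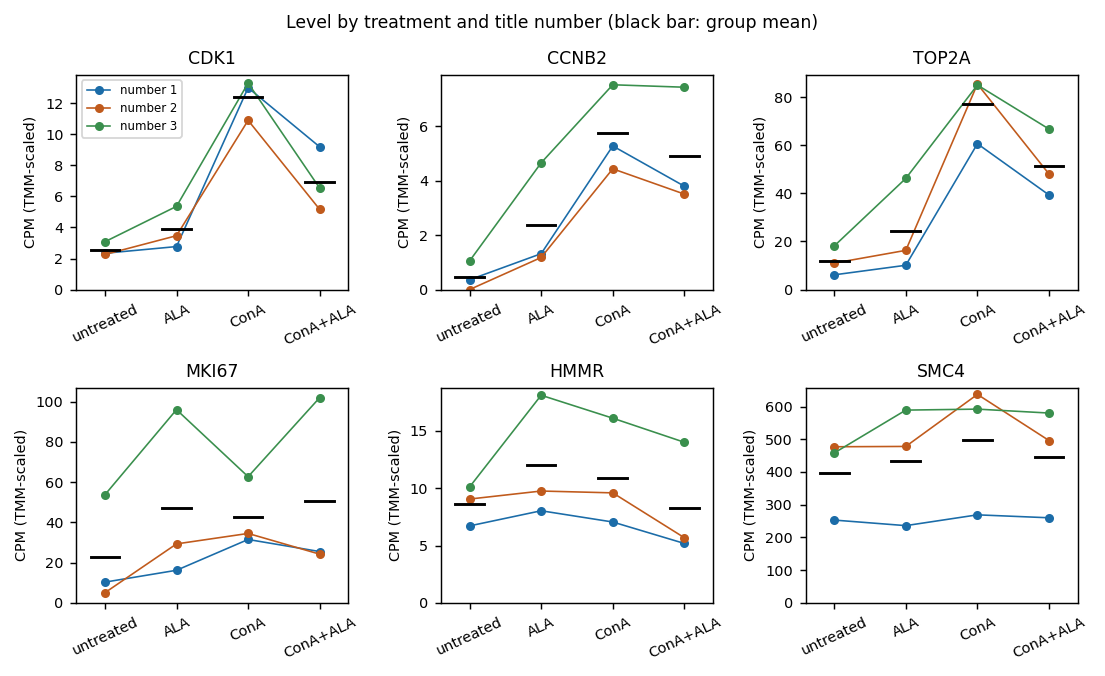
Level in CPM of 6 members by treatment (x axis) in title numbers 1, 2 and 3 (points joined by lines), with a black bar for the mean of each group; every y axis starts at 0. CDK1, CCNB2 and TOP2A are highest with ConA in the group mean, whereas HMMR and SMC4 keep the order of the numbers more than that of the treatments and MKI67 is highest in number 3 throughout.

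Of the 4 mitotic kinases, MELK rose without the block and all 4 rose with it. MELK, a kinase of dividing and progenitor cells, stood at 5.58, 10.9 and 6.75 CPM in untreated cells and 18.5, 27.2 and 25.4 with ConA, with no overlap (1.62 ± 0.37, adjusted p = 0.011). AURKA, the Aurora kinase of spindle poles, gave 6.3, 11.6 and 11.5 CPM and then 16.0, 24.1 and 21.1. Its groups did not overlap, but the difference of 1.06 ± 0.37 missed the threshold (adjusted p = 0.067; with the block 1.10 ± 0.22 and 0.00096). PLK1, the Polo-like kinase that acts from entry to cytokinesis, differed less: 6.21, 10.5 and 13.1 CPM untreated and 14.3, 18.5 and 13.9 with ConA. In number 3 the gap was 0.08 on the log2 scale, and the fit gave 0.65 ± 0.37 (adjusted p = 0.26; with the block 0.73 ± 0.26 and 0.032). Of the PLK1 exon reads 86.9% were unique to the gene, so its level is uncertain to that extent.

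The chromosomal passenger complex corrects faulty chromosome attachments and then moves to the midzone. Of its 3 members listed here 1 rose, and 2 with the block. CDCA8 (borealin) rose from 0.99, 0.388 and 1.11 CPM to 6.05, 5.15 and 3.91, a log2 change of 2.59 ± 0.62 (adjusted p = 0.013; 0.051 without untreated 2). AURKB, the kinase of the complex, stood at 14.6, 39.0 and 36.1 CPM untreated and 18.5, 71.1 and 51.6 with ConA. Its level followed the number more than the treatment, with number 1 lowest in both groups, and the log2 difference was 0.65 ± 0.60 (adjusted p = 0.50); with the block 0.59 ± 0.17 passed (0.013). AURKB overlaps CTC1 on the same strand over 353 bases and 82.3% of its reads were unique. INCENP (71.3, 107 and 98.7 CPM untreated, 99.6, 140 and 93.7 with ConA) passed neither without the block (0.27 ± 0.22, adjusted p = 0.44) nor with it (0.14). The third ConA library was below the third untreated one for INCENP.

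Among spindle checkpoint and APC/C genes 3 of 5 rose, and 5 of 5 with the block. CDC20, the APC/C activator that the checkpoint inhibits, stood at 3.6, 7.24 and 9.66 CPM untreated and 24.0, 26.5 and 29.8 with ConA. The ConA values were close together and above all untreated ones (1.97 ± 0.39, adjusted p = 0.0047). TTK, the checkpoint kinase MPS1, was below 1 CPM in all untreated libraries, at 0.495, 0.841 and 0.582, and reached 3.97, 5.07 and 3.27 with ConA (2.68 ± 0.57, adjusted p = 0.0078). UBE2C, the ubiquitin-conjugating enzyme that works with the APC/C, rose by 2.63 ± 0.67 (adjusted p = 0.018; up to 0.066 without untreated 1 or untreated 2). All 3689 bases of UBE2C lie within ACOT8 on the opposite strand, and it is not stated whether reads were counted by strand. Over the 12 libraries ACOT8 had 5707 exon reads and UBE2C 914. The checkpoint kinase BUB1 gave 0.9, 1.68 and 3.2 CPM and then 4.97, 3.17 and 5.97. ConA 2 lay just below untreated 3, and BUB1 stood at 1.29 ± 0.57 (adjusted p = 0.14; with the block 1.39 ± 0.44 and 0.018).

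Of 6 centromere and kinetochore genes, CENPE rose, and 5 rose with the block. CENPE, the kinesin that carries chromosomes to the spindle equator, was 6.75, 5.75 and 8.09 CPM untreated and 14.5, 13.8 and 17.8 with ConA (1.16 ± 0.31, adjusted p = 0.024). The change was small but even over the numbers (1.09, 1.24 and 1.12), and the call was lost without untreated 1, untreated 2 or ConA 3 (up to 0.082). NUF2, part of the NDC80 complex that binds microtubules, stood at 1.08, 1.68 and 5.41 CPM and 9.93, 9.51 and 16.4 with ConA. Both groups were highest in number 3, they did not overlap, and NUF2 stood at 2.14 ± 0.71 (adjusted p = 0.056; with the block 2.40 ± 0.38 and 0.00015). SPC25, another subunit of that complex, gave 5.0, 10.5 and 4.89 CPM untreated and 12.3, 8.17 and 6.96 with ConA. In number 2 the ConA value of SPC25 was the lower one, and neither fit called it (0.44 ± 0.35, adjusted p = 0.43; with the block 0.25). Without number 1 its fitted change was −0.02.

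Spindle assembly genes gave 3 calls among 7, and 5 with the block. TPX2, which activates AURKA and nucleates spindle microtubules, stood at 2.21, 2.46 and 3.84 CPM untreated and 17.4, 8.17 and 11 with ConA. It rose by 2.11 ± 0.53 (adjusted p = 0.017), but did not pass in the fits without untreated 1, untreated 2 or ConA 1 (up to 0.065). KIF2C, a kinesin that takes microtubules apart at kinetochores, went from 3.33, 3.62 and 4.25 CPM to 10.4, 8.8 and 6.61, with no overlap. Its rise of 1.21 ± 0.35 (adjusted p = 0.034) was lost without any untreated library, ConA 1 or ConA 2 (up to 0.11). The mitotic motor KIF11 rose by 1.61 ± 0.49 (adjusted p = 0.039), and 6 of the 12 fits without 1 library lost it, those without untreated 1, untreated 2, ALA 2, ConA 1, ConA 3 or ConA+ALA 1 (up to 0.15). HMMR, a microtubule-binding protein that is also a hyaluronan receptor, showed no such pattern: 6.71, 9.05 and 10.1 CPM untreated and 7.05, 9.59 and 16.1 with ConA. Numbers 1 and 2 were nearly level between the groups, and the fit gave 0.34 ± 0.46 (adjusted p = 0.66; with the block 0.40), and −0.05 without ConA 3. NUSAP1 (0.68 ± 0.38, adjusted p = 0.24) was not called with the block either (0.14). It shares 10865 bases with NDUFAF1 on the other strand.

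Among the midzone and cytokinesis genes 3 of 6 rose, and 5 with the block. ECT2, the exchange factor that activates RhoA at the furrow, stood at 2.43, 2.91 and 3.84 CPM untreated and 14.8, 11.3 and 8.88 with ConA. The untreated values were close together, the ConA values ranged more widely, and ECT2 rose by 1.93 ± 0.38 (adjusted p = 0.0051). KIF4A, a kinesin of chromosome arms and midzone, was 6.48, 9.05 and 9.48 CPM and then 20.3, 23.0 and 19.8 (1.33 ± 0.30, adjusted p = 0.010). KIF23, the centralspindlin motor, rose by 2.28 ± 0.61 (adjusted p = 0.023; up to 0.080 without untreated 1, untreated 2, ConA 1 or ConA 3). KIF20A, which brings the passenger complex to the midzone, stood at 0.81, 0.647 and 2.04 CPM untreated and 3.27, 2.38 and 2.77 with ConA. Its groups did not overlap, but neither fit called it (1.27 ± 0.67, adjusted p = 0.22; with the block 0.079).

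Chromosome structure genes gave 4 calls among 6, and 5 with the block. SMC2, a core subunit of both condensins, stood at 13.5, 15.0 and 13.6 CPM in untreated cells and at 60.8, 35.8 and 31.6 with ConA. The untreated values were close together and far below the ConA values (1.61 ± 0.27, adjusted p = 0.0020). TOP2A, the topoisomerase that untangles sister chromatids (chromosome 9, 22207638 to 22237496), went from 6.12, 11 and 18.1 CPM to 60.6, 85.4 and 85.0. It rose by 2.71 ± 0.53 (adjusted p = 0.0049), but shares 10778 bases with the replication gene CDC6 on the other strand. The condensin subunits NCAPG (2.68 ± 0.70, adjusted p = 0.021) and NCAPH (1.74 ± 0.51, 0.034) rose as well. NCAPG was lost without untreated 1, untreated 2 or ConA 1 (up to 0.077), and NCAPH without any of these or ConA 3 (up to 0.11).

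SMC4, the partner of SMC2 in condensin, stood at 253, 477 and 458 CPM in untreated cells and 269, 637 and 592 with ConA. Number 1 was lowest in both groups, and SMC4 passed neither without the block (0.33 ± 0.43, adjusted p = 0.65) nor with it (0.072). It was higher with ConA in 3 of 3 numbers, by 0.09, 0.42 and 0.37, and its difference from SMC2 was not tested. MKI67, the Ki-67 antigen of proliferating cells, was high in number 3 in both groups: 10.3, 5.04 and 53.7 CPM untreated and 31.5, 34.5 and 62.7 with ConA. Untreated 3 exceeded ConA 1 and ConA 2, and the difference of 0.90 ± 0.91 (adjusted p = 0.54) passed with the block (1.45 ± 0.43, 0.029).

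**Figure D3:**
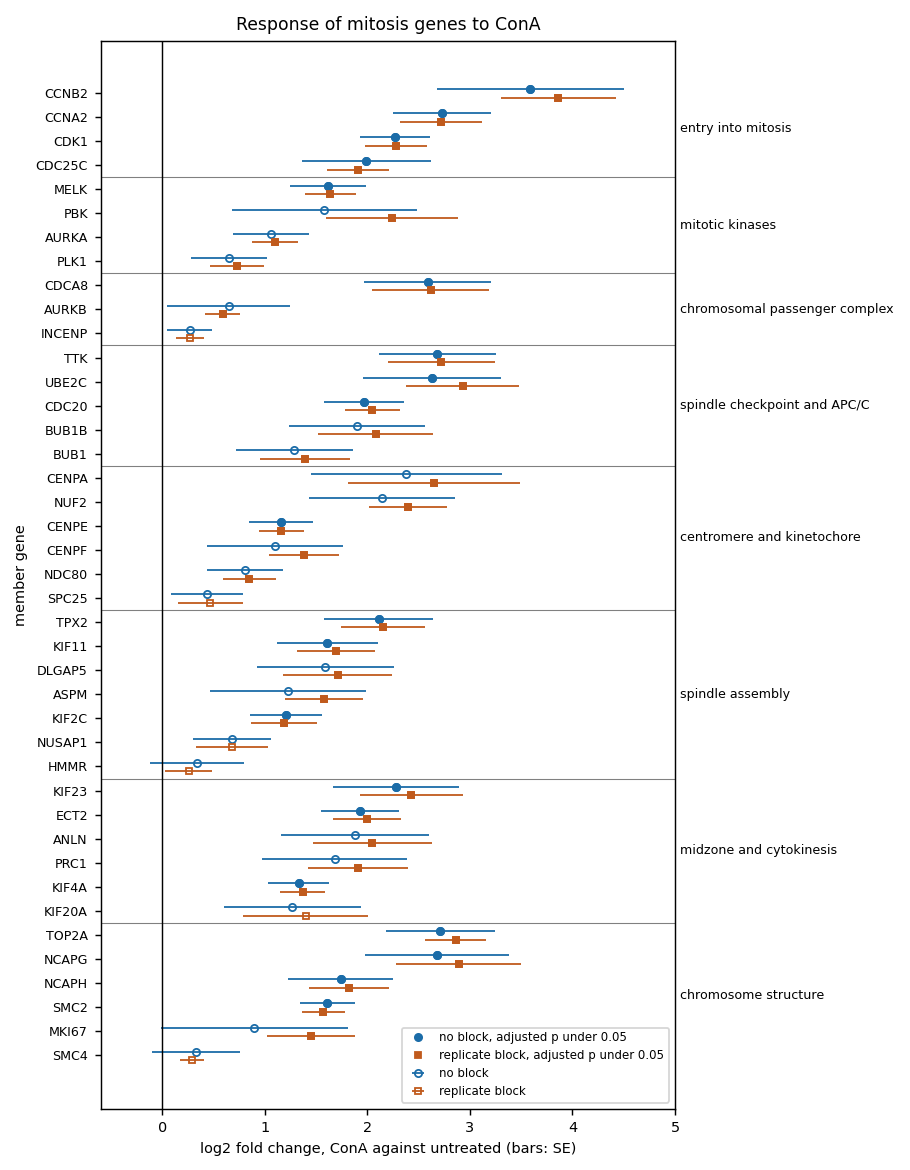
Log2 fold change of each member with ConA against untreated cells (points) with its SE (bars), by role, from the fit without (blue circles) and with (orange squares) the title number as a block; filled symbols have an adjusted p under 0.05. All points lie above 0, CCNB2 is farthest right at 3.59, and INCENP, HMMR, SMC4 and SPC25 lie nearest 0, open in both fits.

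Of the 20 calls 9 held in all 12 fits that leave out 1 library: CDK1, CCNA2, MELK, CDC20, TTK, ECT2, KIF4A, SMC2 and TOP2A (adjusted p up to 0.045). The number of members called without the block was 10 without untreated 1 or without untreated 2, and 0 without all 4 libraries of number 2. Over all genes, 55 were called without number 2. The blocked fit without number 2 called 26 members and 3794 genes. On the deposited TPM scale, 38 of 41 members had the higher mean with ConA, while HMMR, INCENP and SMC4 had the lower one (SMC4 119 ± 19.2 against 129 ± 13.4 TPM, SD, n = 3), opposite in sign to their fitted changes. Mitochondrial genes took 3.59 to 4.82% of the exon reads in number 1 and 11.8 to 23.3% in the others. Their share was also higher with ConA in each number, at 3.98, 12.7 and 13.1% untreated and 4.48, 23.3 and 17.2% with ConA. The part of either difference in the results was not tested.

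Markers of other cells moved with ConA too. The summed level of 6 monocyte markers was 751, 449 and 398 CPM in untreated libraries 1, 2 and 3 and 334, 98.2 and 102 with ConA. That of 7 T cell markers was 1550, 1250 and 954, and then 1160, 837 and 675. Of these T cell markers, 1 had a fitted change above 0 and 6 below, with a median of −0.36. Here 1 rose and 2 fell (1 and 4 with the block). Markers of plasmablasts, antibody-secreting cells that can divide, summed to 257, 434 and 2520 CPM untreated and 564, 2410 and 3870 with ConA over 5 markers. This plasmablast sum was higher with ConA in each number and highest in number 3. Of these 5 markers, 4 had a fitted change above 0 and 1 below, with a median of 0.56. None was called without the block, while 3 rose and 1 fell with it. Markers of erythroid precursors, another dividing type, summed to 142, 283 and 230 CPM and then 32.3, 183 and 155 over 6 markers, lower in each number. Blood progenitor markers summed to 8.43 to 12 CPM untreated and 10.9 to 17.5 with ConA, over 4 markers. Of these, 2 had a fitted change above 0 and 2 below, with a median of 0.07. Markers of B cells summed to 1420 to 2460 CPM with ConA and 1550 to 2630 untreated over 7 markers. These sums overlap, but 6 of the 7 B cell markers had a fitted change below 0, with a median of −1.13. Of them 2 fell, and 5 with the block. Dendritic cell markers summed to 29.7, 41.8 and 60.4 CPM untreated and 129, 368 and 282 with ConA over 4 markers, higher in each number, with XCR1 at 0 in the 3 ConA libraries. That sum does not stand for the list. Of the 3 dendritic cell markers tested, 1 had a fitted change above 0 and 2 below, with a median of −0.70. Neutrophil markers summed to lower levels with ConA over 4 markers, 176, 115 and 106 and then 44.4, 40.4 and 38.2, with CXCR2 at 0 in the 3 ConA libraries. NK cell markers (4) stood at 65.1, 31.8 and 32.3 and then 20.6, 18.9 and 17.6, and megakaryocyte and platelet markers (2) at 13.3, 70.5 and 28.3 and then 5.12, 19.4 and 18.9. No other marker of these lists was at 0 in all 3 libraries of either group. The part of these cells in the members' response was not tested.

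Intron reads, counted apart from exon reads in the same libraries, gave a second view of the ConA response. Of 40 members tested, SMC2, CCNA2 and UBE2C rose, against 4.16% of the 15305 genes tested, and 18 rose with the block, against 16.5%. The members' median without the block was 0.97, with 35 above 0 and 5 below, against −0.02 over all genes. SMC2 had 63, 39 and 37 intron reads untreated and 178, 121 and 112 with ConA (1.68 ± 0.39, adjusted p = 0.023). CCNA2 had 16, 8 and 12 and then 105, 44 and 52 (2.58 ± 0.61, 0.025). UBE2C, which lies within ACOT8, had 0 intron reads in each untreated library and 13, 15 and 25 with ConA. KIF11, which rose in exon reads, stood at −0.66 ± 0.44 in intron reads (adjusted p = 0.44). The others below 0 were SPC25 (−0.31 ± 0.42), PLK1 (−0.30 ± 0.46), AURKB (−0.19 ± 0.33) and PRC1 (−0.06 ± 0.24). PRC1 had 226 to 380 intron reads per library. Low intron counts limit this readout for some members: KIF20A, for example, had 2 to 43 intron reads per library.

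The comparison of ALA with untreated cells asked what ALA did without a mitogen. No member passed in edgeR, DESeq2 or limma-voom, against 0% of all genes in edgeR, and none passed with the block, against 0.0449%. The members still lay mostly on one side: 39 of 41 had a fitted log2 change above 0, with a median of 0.67, against 0.00 over all genes, of which 49.9% were above 0. At an unadjusted p under 0.05 there were 8 members, all higher (155 genes of 13358 were at this level). ALA was higher than untreated in 3 of 3 numbers for 29 members, against 14.8% of all genes.

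TPX2 was the member with the smallest p. It stood at 2.21, 2.46 and 3.84 CPM untreated and 4.01, 6.02 and 15.4 with ALA, without overlap (1.57 ± 0.52, unadjusted p = 0.011, adjusted p = 1.0; with the block 0.44). CCNB2, at 1.32, 1.18 and 4.66 CPM with ALA, was above each of its untreated values (2.31 ± 0.88, unadjusted p = 0.023), and so were CCNA2, at 1.74, 2.55 and 5.74 (1.17 ± 0.47, 0.029), and CENPA. CENPA, the histone H3 variant that marks centromeres, had 3, 4 and 6 reads untreated and 9, 6 and 46 with ALA (2.51 ± 0.93, unadjusted p = 0.020). Most of its difference thus sat in 1 library. The midzone bundler PRC1 (1.76 ± 0.72), TTK (1.30 ± 0.56), NDC80 (0.81 ± 0.37) and NCAPG (1.5 ± 0.69) were the other members at this level, with overlapping groups.

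Both libraries of number 3 moved this difference. ALA 3 held the highest value of the ALA libraries for 37 members, and the highest of all 12 libraries for 8. Without it the median member stood at 0.16, with 30 of 41 above 0 and 0 members at an unadjusted p under 0.05. Without untreated 3 the median was 1.24, with 15 members at that level. There were 14 without ALA 1, 2 without untreated 1 and 5 without untreated 2 or ConA+ALA 2, and 15 with the block. The count over all genes moved as well. Genes at that level numbered 155 with all 12 libraries and no block, 131 without ALA 3, 276 without untreated 3 and 309 without ALA 1. They numbered 178 without untreated 1, 197 without untreated 2, 141 without ConA+ALA 2 and 837 with the block, of 13358 to 13789 tested. Within numbers, the median member was higher with ALA by 0.34, 0.56 and 0.85 in numbers 1, 2 and 3. There, 34, 33 and 40 members were higher, against 46.9, 50.3 and 50.1% of all genes. Plasmablast markers moved alongside, at 510, 953 and 3530 CPM with ALA against 257, 434 and 2520 untreated. Erythroid precursor markers were 99.5, 356 and 423 against 142, 283 and 230. Blood progenitor markers summed to 16.8, 19.3 and 13.5 against 12, 9.44 and 8.43, with no overlap between the summed levels. Of these 4 markers, however, 2 had a fitted change above 0 and 2 below, with a median of 0.22. Monocyte markers summed to 1380, 346 and 293 against 751, 449 and 398, higher with ALA in number 1 alone, though 5 of the 6 had a fitted change above 0. Whether these cells account for the members' levels was not tested.

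With ConA present, ALA was compared within ConA cultures. No member was called in edgeR, DESeq2 or limma-voom (edgeR background 0%), or with the block (0.554%). Here most members lay lower: 37 of 41 were below 0, with a median of −0.32, against −0.03 over all genes, of which 53.9% were below 0. ConA+ALA was lower than ConA in 3 of 3 numbers for 23 members, against 18.1% of all genes. In numbers 1, 2 and 3, 41, 35 and 23 members were lower, with medians of −0.40, −0.45 and −0.03, so number 3 showed little of it. At an unadjusted p under 0.05 there were 2 members, SMC2 and CDK1 (445 genes of 13358 were at this level). That count of members is near the share of all genes. The median was −0.49 without ConA+ALA 3 and −0.20 without ConA+ALA 2. Markers of other cells differed as well. Those of erythroid precursors summed to 71.8, 267 and 376 CPM with both agents against 32.3, 183 and 155 with ConA, those of neutrophils to 83.3, 68.4 and 76.0 against 44.4, 40.4 and 38.2, and those of NK cells to 36.5, 30.5 and 35.5 against 20.6, 18.9 and 17.6. All 3 sums were higher with both agents in each number, with CXCR2 of the neutrophil list at 0 in both groups. Of the 3 NK cell markers tested, 2 had a fitted change above 0 and 1 below. B cell markers were also higher in each number, at 1800, 2660 and 2340 against 1420, 2460 and 2010. Of these 7 markers, 6 had a fitted change above 0 and 1 below. So were megakaryocyte and platelet markers, at 24.2, 101 and 20.5 against 5.12, 19.4 and 18.9. Plasmablast markers, at 787, 1250 and 3770 against 564, 2410 and 3870, were higher in number 1 and lower in numbers 2 and 3. The part of these cells in the members' levels was not tested.

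SMC2 stood at 60.8, 35.8 and 31.6 CPM with ConA and 30.0, 23.3 and 19.7 with both, all of them below the ConA values (−0.81 ± 0.26, unadjusted p = 0.0094, adjusted p = 1.0; with the block 0.12). CDK1 was 13, 10.9 and 13.3 CPM and then 9.19, 5.16 and 6.53 (−0.83 ± 0.33, unadjusted p = 0.027). CDC20, at 19.7, 14.4 and 22.6 CPM with both, and MELK, at 15.3, 16.6 and 18.2, also lay below all their ConA values. CDC25C (−1.11 ± 0.62), CCNA2 (−0.77 ± 0.45), CDCA8 (−0.77 ± 0.58) and BUB1B (−0.78 ± 0.64), a checkpoint protein, were lower in 3 of 3 numbers with overlapping groups. ASPM, CENPA, CENPF and MKI67 were the 4 members above 0. In each of these, ConA+ALA 3 was above ConA 3, as in MKI67 at 102 against 62.7 CPM.

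**Figure D4:**
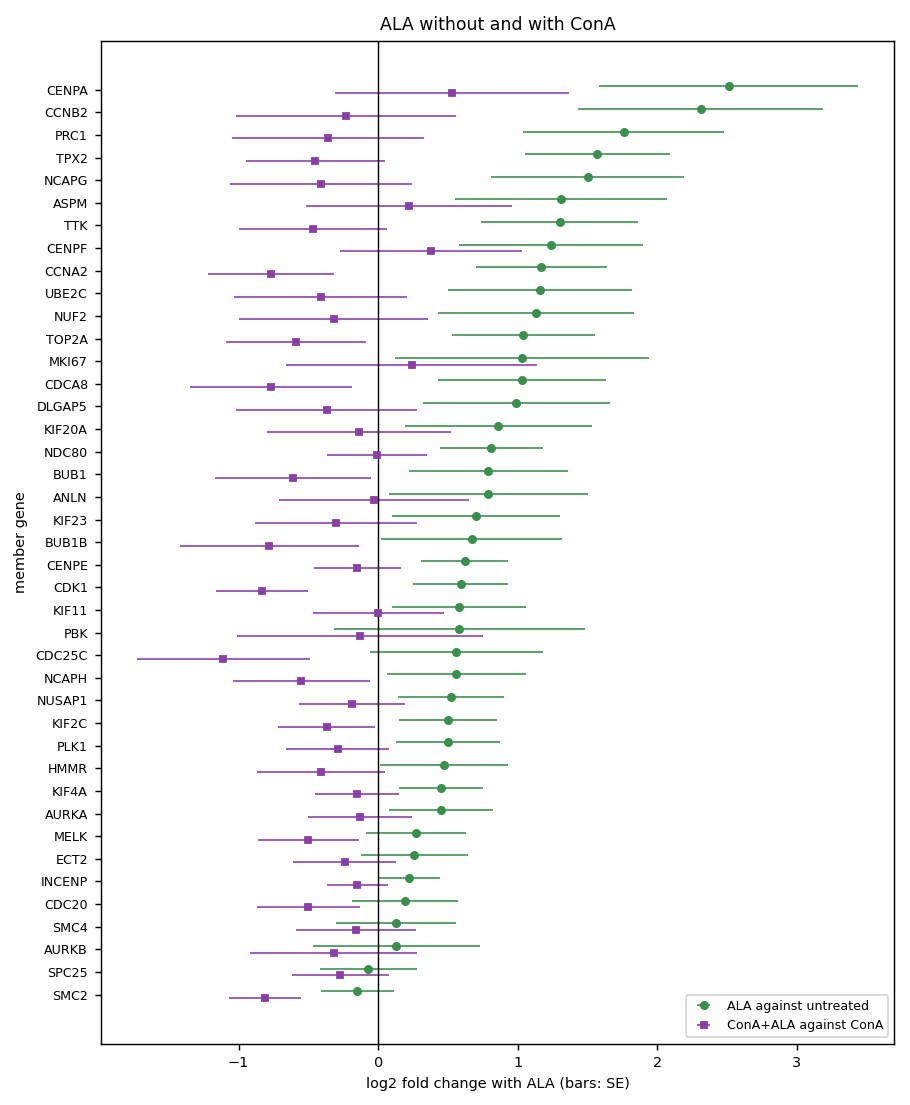
Log2 fold change of each member with ALA (points) with its SE (bars), in cells without ConA (green circles, ALA against untreated) and with it (purple squares, ConA+ALA against ConA), ordered by the former. Most circles lie right of 0 and most squares left of it; no point has an adjusted p under 0.05.

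The 2 contrasts of ALA use separate libraries. In 16 members ALA was higher in 3 of 3 numbers without ConA and lower in 3 of 3 with it, against 2.60% of all genes, among them CDK1, CCNA2, CCNB2, CDC20, CDC25C, TOP2A and UBE2C. The interaction tests that difference gene by gene. No member passed in edgeR, DESeq2 or limma-voom, against 0% of all genes without and with the block. All 41 interaction terms were below 0, with a median of −0.88, against −0.02 over all genes, and 5 members had an unadjusted p under 0.05. CDK1 (−1.41 ± 0.47, unadjusted p = 0.011), CCNA2 (−1.93 ± 0.65, 0.012), TPX2 (−2.03 ± 0.72, 0.016) and TTK (−1.77 ± 0.77, 0.040) had the smallest p, each with an adjusted p of 1.0. Without ALA 3 the median term was −0.45, with 38 of 41 below 0 and 2 at this level. It was −1.66 without untreated 3, with 13 members at this level, and −1.36 without ConA+ALA 3. There were 16 such members without ALA 1, 3 without untreated 1 or ConA+ALA 2, and 18 with the block. The count over all genes moved as well. Genes at this level numbered 222 with all 12 libraries and no block, 219 without ALA 3, 357 without untreated 3 and 340 without ALA 1. They numbered 200 without untreated 1, 194 without ConA+ALA 2 and 1004 with the block, of 13358 to 13789 tested.

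The cultures with both agents were also set against each single control. Against ALA, ECT2 and SMC2 rose, against 5.09% of all genes, and 8 members rose with the block, against 15.8%. Both counts of members are thus near the share of all genes. ECT2 stood at 2.52, 2.81 and 5.74 CPM with ALA and 8.8, 8.15 and 12.8 with both (1.43 ± 0.38, adjusted p = 0.040). SMC2 was 11.2, 13.7 and 13.2 and then 30.0, 23.3 and 19.7 (0.94 ± 0.26, adjusted p = 0.049). Neither group pair overlapped, but both calls were marginal: of the 12 fits without 1 library, ECT2 passed in 4, those without untreated 1, untreated 3, ALA 3 or ConA 1 (up to 0.15 in the others), and SMC2 in 1, that without ConA 1 (up to 0.17). The median member stood at 0.45, with 0.22 without ALA 1, 0.29 without ConA+ALA 3 and 1.10 without ALA 3, where 4 members rose. Within numbers it was 1.36, 0.62 and 0.09 in numbers 1, 2 and 3, again lowest in number 3.

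Against untreated cells, 8 members rose with both agents, against 6.51% of all genes, and 28 with the block, against 18% of all genes. The 8 were CDK1, CCNA2, CCNB2, CDC20, TTK, ECT2, KIF4A and TOP2A, all of which also rose with ConA against the same untreated libraries. Their log2 changes were 1.44 ± 0.34, 1.96 ± 0.47, 3.36 ± 0.90, 1.47 ± 0.38, 2.20 ± 0.57, 1.69 ± 0.38, 1.18 ± 0.30 and 2.13 ± 0.52 (adjusted p 0.016 to 0.033). None was called in all 12 fits without 1 library: each was lost without untreated 1 and without untreated 2, and each without 1 or more ConA+ALA libraries, TTK also without untreated 3 and CCNB2 also without ConA 3 (adjusted p up to 0.11). The median over the 41 members was 1.22, with 40 above 0, and it was 1.23 without ALA 3, where 14 members rose. There were 13 calls without ALA 1 or untreated 3, 4 without ConA+ALA 2, 3 without ConA+ALA 1, 1 without ConA+ALA 3 and 0 without untreated 1 or 2.

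Members varied together across libraries. After centring each gene within its number, the correlation of a member with the median of the others had a median of 0.90 over 12 libraries and was above 0.7 for 36 members. NUF2 was the closest at 0.99 and HMMR stood apart at 0.03, with SPC25 at 0.63, NUSAP1 at 0.66, INCENP at 0.68 and SMC4 at 0.69. These libraries share treatments and depth, so the values describe these samples only.

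Other cell cycle genes were taken from lists, whose counts stand beside 9.93% of all genes that rose and 8.57% that fell with ConA (21.3% and 21.2% with the block). In ConA against untreated, 25 of 56 other mitosis genes rose and 1 fell (42 and 2 with the block; median 1.56). The minus-end kinesin KIFC1 rose from 13.1, 14.9 and 19.3 CPM to 51.5, 45.3 and 45.9 (1.59 ± 0.23, adjusted p = 0.0010) and MIS18A, which licenses CENPA loading, by 2.91 ± 0.44 (0.0012). CDC25B, a CDK-activating phosphatase related to CDC25C, was the one that fell, from 171, 126 and 94.4 CPM to 35.0, 31.1 and 40.0 (−1.88 ± 0.29, 0.0012). Of 17 cohesin, separase and other condensin genes 3 rose (7 rose and 3 fell with the block; median 0.36), the condensin II subunit NCAPG2 (1.97 ± 0.34), separase ESPL1 (2.48 ± 0.46) and SMC1A (0.67 ± 0.21, adjusted p = 0.045). SMC1A passed in 1 of the 12 fits without 1 library, that without untreated 1 (up to 0.16 in the others). Of 17 APC/C genes 2 rose (9 rose and 2 fell with the block; median 0.47), and the 11.8% that rose without the block is near the background. These were UBE2S, the chain-elongating partner of UBE2C (2.15 ± 0.34), and the subunit ANAPC7 (0.71 ± 0.17; 0.054 without untreated 1).

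Regulators upstream gave mixed directions. Of 21 transcription factor genes of the mitotic program 3 rose and 1 fell (9 and 3 with the block; median 0.50), or 14.3% and 4.76%, near the shares of all genes. RBL2, the pocket protein that represses these genes in resting cells, fell from 132, 59.5 and 55.0 CPM to 23.6, 23.7 and 24.7 (−1.78 ± 0.33, adjusted p = 0.0035), and all ConA values lay below all untreated ones. E2F4 (0.88 ± 0.17), E2F5 (1.6 ± 0.48, adjusted p = 0.038) and TFDP1 (1.30 ± 0.38) rose. TFDP1 was not called without any untreated library, ConA 1 or ConA 3 (up to 0.14), and E2F5 without any untreated or ConA+ALA library, ConA 1 or ConA 2 (up to 0.13). FOXM1 stood at 1.83 ± 0.68 (adjusted p = 0.085; with the block 0.011) and MYBL2 at 1.39 ± 0.69 (0.19; with the block 0.014), the latter at 5.9, 19.3 and 35.5 CPM untreated and 42.0, 59.7 and 57.8 with ConA. Of 9 G1 cyclin and CDK genes 2 rose (6 rose and 1 fell with the block; median 1.22): CDK4, from 55.5, 60.5 and 67.2 CPM to 290, 266 and 209 (2.06 ± 0.23, adjusted p = 0.00028), and CCND2 (1.99 ± 0.55, 0.025; up to 0.11 without untreated 1, untreated 3 or ConA 2). Of 5 CDK inhibitor genes 2 fell, CDKN2D (−2.01 ± 0.30) and CDKN1B (−1.39 ± 0.25), and CDKN1A stood at −0.17 ± 0.29 (adjusted p = 0.73). Of 29 DNA replication genes 25 rose (26 with the block; median 1.81), as in the helicase subunit MCM6, at 64.6, 87.7 and 99.0 CPM untreated and 446, 479 and 417 with ConA.

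The replication list and the members differed in their medians with ALA. Without ConA the 29 replication genes had a median of 0.03, with 19 above 0, where the members had 0.67 and the other mitosis genes 0.46, with 46 of 56 above 0. With ConA their median was −0.50, with 28 of 29 below 0, where the members had −0.32. No gene of the cell cycle lists was called in either contrast of ALA without the block. With the block, 1 of 9 G1 cyclin and CDK genes was higher in ConA+ALA than in ConA. Of all genes 0.554% were called there in either direction. The difference between the lists was not tested.

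**Figure D5:**
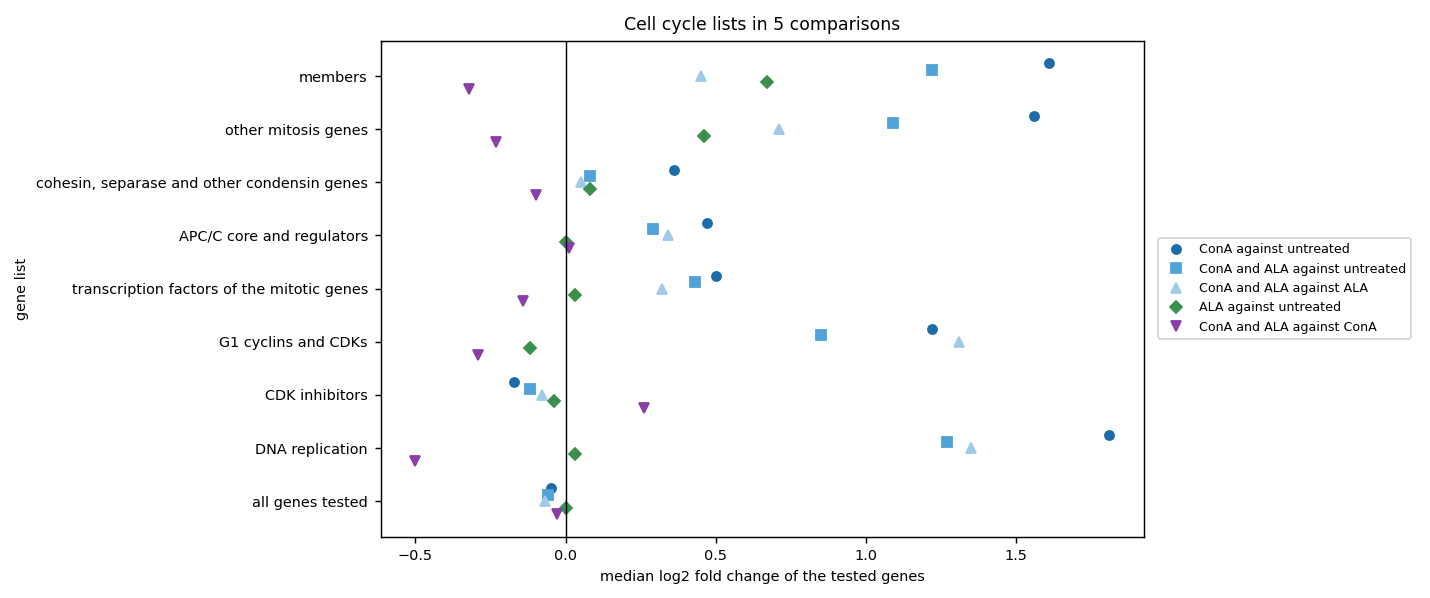
Median log2 fold change (x axis) of the members, of 7 other cell cycle lists and of all genes tested (rows) in 5 comparisons (symbols), which share control libraries. With ConA the members (1.61), other mitosis genes (1.56) and DNA replication genes (1.81) lie farthest right; with ALA alone the members (0.67) lie right of the DNA replication genes (0.03).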

How the data were processed

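Poly(A) RNA of 12 cultures was made into NEBNext libraries and read as pairs on an Illumina instrument, per the labels' protocols. CanFam3.1 and bcl2fastq are named in the submitters' processing notes. Neither the aligner nor the counting tool nor the use of strand is given in the sources used here. Per the file headers, the deposited tables hold exon, intron and gene read counts per gene, with no normalization, and TPM computed by the authors.

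Members were found by symbol. The main test on exon counts was that of edgeR 4.0.16 under R 4.3.3 (TMM, filterByExpr, robust quasi-likelihood fit, 4 group means, all 12 libraries, Benjamini-Hochberg adjustment over the 13358 genes kept, threshold 0.05). Fold changes are log2 with SE. Levels are CPM on TMM-scaled totals, in which 1 read is worth 0.0465 to 0.0747. Differences within a number were taken on log2(CPM) with 2 prior reads. Intron counts were fitted alone.

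Libraries of the same title number deviated together from their group means (r 0.376 to 0.748 in 18 pairs, −0.498 to 0.206 in 36 pairs of other numbers), and each of the 12 libraries was closest to one of its own number. The numbers thus pair the samples, from the titles and this check. The model with the number as a block had a biological coefficient of variation of 0.217, against 0.422 without it. Its value, or its count of calls, stands beside a result where it changes the call.

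Alternatives were DESeq2 1.42.0, limma-voom (limma 3.58.1), a minimum mean of 50 reads, no filter, DESeq2-type size factors, unique exon reads, total gene reads, the compared groups alone, and each library or number left out. The blocked model without each number was added after seeing the data. Scripts were tested on simulated data. Figures used Python 3.11.15 with matplotlib 3.10.9.

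The members, roles, lists and markers were chosen with earlier results of these data known. Named members were, per role, the 2 smallest and the 1 largest unadjusted p with ConA, the 8 smallest in each contrast of ALA, the 4 smallest in the interaction, the 3 smallest of each list, and CDK1, CCNB2, TOP2A, MKI67, AURKB and PLK1 throughout. Other names (ANLN, UBE2C, KIF11, KIF23, NCAPG and NCAPH with ConA, NUSAP1, ASPM, CENPF, E2F5, FOXM1 and MYBL2) were added after their values were seen.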

Additional observations from a re-analysis of the deposited data

How the results depend on the processing

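Counts of calls depended mainly on the replicate block and on single libraries. With the replicate block, calls in ConA against untreated were 5676 genes and 35 members, in ConA and ALA against ALA 4022 and 8, and in ConA and ALA against untreated 4770 and 28. It called 6 genes in ALA against untreated and 74 in ConA and ALA against ConA, with 0 members in both. In the replicate block without number 1, 2 or 3, ConA and ALA against ALA gave 2096, 2157 and 3817 genes (4, 4 and 16 members), ConA and ALA against untreated 2893, 3003 and 4395 (19, 19 and 29), and ConA and ALA against ConA 23, 7 and 97. ConA against untreated gave 3794 genes without number 2 and 5418 (36 members) without number 3, where ALA against untreated gave 18 and the interaction 14. DESeq2 called 3 genes in ALA against untreated, 55 in ConA and ALA against ConA, 1776 in ConA and ALA against ALA, 2271 (20 members) in ConA and ALA against untreated and 4 in the interaction. Fits of the compared groups only called 1614 genes in ConA against untreated, 3 in ConA and ALA against ConA and 0 members in ConA and ALA against ALA. In this last comparison no filter gave 0 members and total gene reads 1, and both gave 2 genes in ConA and ALA against ConA.

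Leaving out 1 library or 1 number gave 55 to 2467 genes and 0 to 24 members in ConA against untreated, 0 to 1184 and 0 to 4 in ConA and ALA against ALA, and 0 to 1633 and 0 to 14 in ConA and ALA against untreated. It gave 0 to 6 genes in ConA and ALA against ConA and 0 to 1 in the interaction. The lowest of these counts in ConA against untreated, 55 and 0, came without number 2. There were 2185 and 11 without number 1 and 1018 and 18 without number 3, and the blocked fit without number 2 called 3794 genes and 26 members. The cause was not tested. Of the values of named genes under an alternative, 1325 kept their direction and side of the threshold, 140 lost the call, 32 gained it and 2 changed sign: HMMR with ConA (−0.05 without ConA 3, 0.58 without ConA 1) and SPC25 (−0.02 without number 1; the highest was 1.00). The cause was not tested. In ConA against untreated and in the 2 contrasts of ALA, calls of the members named there did not change with the block beyond those given. For the cultures with both agents against untreated cells or ALA, only the total counts with the block are given. Against untreated cells, genes of mitotic entry went from 3 to 4 calls with the block, and mitotic kinases from 0 to 2. Against ALA, each of these groups went from 0 calls to 1. Depth limits members with few reads, such as CENPA (3 to 46 reads per library) and CCNB2 (0 to 137), and the intron readout.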
